A study of Mus musculus with 12 samples.

Results

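The enzymes and transporters that carry glucose to lactate, with the kinases that set the pace of that flow, form a group of 32 genes out of 21887 protein-coding genes in the RefSeq gene table of GRCm38.p6. They were chosen by symbol: 2 glucose transporters, the enzymes of glycolysis with their isozymes, the Pfkfb and Pdk regulatory kinases, lactate dehydrogenase and 2 lactate transporters. Chromatin immunoprecipitation sequencing (ChIP-seq) peaks of 4 histone marks were read around them in 2 mouse melanoma cell lines grown in serum-containing DMEM/F12. Line 971 is labelled wild type (WT) for Kmt2d, and line 493 is labelled a Kmt2d mutant. Each line and mark had 1 library, so no difference below has a replicate check, and genotype cannot be told apart from any other difference between these lines. The labels do not state which Kmt2d alteration line 493 carries. For each gene, a peak counted as being at a gene end if it lay within 1 kb of either end of the gene model, and bases under peaks were summed within 50 kb of either end.

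Glycolysis splits glucose into pyruvate in the cytosol, and melanomas, like many tumours, are known to send much of that pyruvate on to lactate. Phosphofructokinase is the main control point of the upper part of the pathway, and the Pfkfb enzymes make and remove its activator, fructose 2,6-bisphosphate. The Pdk kinases inhibit pyruvate dehydrogenase and so hold pyruvate back from the mitochondria. Of the marks, H3K4me3 sits at active gene starts, H3K27ac at active starts and enhancers, H3K4me1 at enhancers and the flanks of starts, and H3K27me3 at Polycomb-repressed genes. KMT2D is an enzyme known for placing H3K4me1 on enhancer nucleosomes.

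The lists themselves differed in length. The WT and mutant lists held 23154 and 17987 H3K4me3 peaks, 26415 and 18751 H3K27ac peaks, and 17373 and 3649 H3K4me1 peaks. The WT H3K27me3 list held 25394 peaks, and the mutant H3K27me3 list, which is named as called against the WT H3K27me3 library, held 1300, so these lists were not compared. Sequencing depth is not given in the sources used here. Kmt2d itself carried H3K4me3 at its ends in both lists, which does not read the mutation. Of 8 melanocyte markers, 3 had gene-end H3K4me3 in WT cells (Mitf, Pax3 and Pmel) and 5 in mutant cells (also Sox10 and Mlana), while Tyr, Tyrp1 and Dct had none in either. Over all protein-coding genes the shares with gene-end H3K4me3 were 56.4% in WT cells and 56.7% in mutant cells. For other cell types the counts were 4 and 3 of 6 fibroblast, 1 and 1 of 4 endothelial, 0 and 0 of 4 immune, and 0 and 1 of 4 keratinocyte markers. The melanocyte, fibroblast and keratinocyte marker counts thus differed between the lines, and their part in the results below was not tested.

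Sequences just upstream of 5 members show the range of start regions in the group. Eno1, Hk2 and Slc16a1 had H3K4me3 at the start in both lines, and Pgam2 and Pklr had it in neither. The sequences are from the RefSeq promoter table (GRCm38.p6), written 5′ to 3′ on the strand of the gene and ending 1 base before the gene model. The gene model begins at the annotated start at 4 of these genes, and at Pklr its first annotated start is further in, at 89136142. Capitals mark ACGTG or GCGTG on either strand, the core of the hypoxia response element, including where it lies within the E-box CACGTG.
Eno1 (+ strand, chr4:150236458-150236707): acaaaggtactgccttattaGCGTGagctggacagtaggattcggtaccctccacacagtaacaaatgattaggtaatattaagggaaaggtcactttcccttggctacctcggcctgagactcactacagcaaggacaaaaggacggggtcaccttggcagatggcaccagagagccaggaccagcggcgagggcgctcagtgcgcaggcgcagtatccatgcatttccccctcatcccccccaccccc
Hk2 (- strand, chr6:82774455-82774704): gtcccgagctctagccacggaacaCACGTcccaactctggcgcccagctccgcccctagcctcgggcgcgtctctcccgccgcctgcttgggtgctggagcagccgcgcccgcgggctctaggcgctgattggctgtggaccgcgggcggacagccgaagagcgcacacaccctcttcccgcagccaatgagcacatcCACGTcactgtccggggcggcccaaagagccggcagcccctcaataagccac
Slc16a1 (+ strand, chr3:104638414-104638663): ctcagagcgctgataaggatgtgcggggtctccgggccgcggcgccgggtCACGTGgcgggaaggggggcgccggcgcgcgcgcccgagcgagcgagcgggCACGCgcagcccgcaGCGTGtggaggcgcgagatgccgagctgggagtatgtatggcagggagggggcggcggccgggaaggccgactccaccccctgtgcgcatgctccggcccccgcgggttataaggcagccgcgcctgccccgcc
Pgam2 (- strand, chr11:5803797-5804046): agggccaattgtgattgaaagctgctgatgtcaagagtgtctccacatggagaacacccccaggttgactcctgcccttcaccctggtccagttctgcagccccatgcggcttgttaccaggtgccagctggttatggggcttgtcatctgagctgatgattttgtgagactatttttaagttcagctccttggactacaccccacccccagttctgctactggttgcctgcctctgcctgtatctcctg
Pklr (+ strand, chr3:89135892-89136121): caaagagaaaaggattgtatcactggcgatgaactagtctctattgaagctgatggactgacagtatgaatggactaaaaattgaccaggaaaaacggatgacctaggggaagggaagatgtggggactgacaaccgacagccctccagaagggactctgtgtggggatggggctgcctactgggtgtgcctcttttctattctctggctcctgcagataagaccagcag
The Slc16a1 stretch had 4 matches on both strands together, 2 of them from 1 CACGTG, which reads the same on each strand. Hk2 had 2 matches and Eno1 had 1, while Pgam2 and Pklr had 0. CpG dinucleotides numbered 37 upstream of Slc16a1, 25 at Hk2 and 9 at Eno1, against 1 at Pgam2 and 3 at Pklr.

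The promoter table covered 31 of the 32 members (not Slc2a3) with 51 windows of 300 bases, 250 before and 50 after a start. The windows of 1 gene can overlap. The core was present in 36 of the 51 windows (70.6%), and in 43.8% of all 32851 windows of the table. The windows of the table belong to 27025 genes and were not limited to protein-coding genes, unlike the members. Among windows with H3K4me3 in both lines the shares lay closer, at 33 of 41 (80.5%) for the members and 65.6% for all. CACGTG was present in 6 of the 51 windows (11.8%), and in 7.15% of all windows. The median window held 15 CpG in the members and 7 in the table, but 20 and 22 among windows with H3K4me3 in both lines. These matches describe letters only.

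H3K4me3 was at a gene end of 26 of the 32 members in WT cells (background 56.4% of all protein-coding genes) and of 26 in mutant cells (background 56.7%). They were the same 26 genes (background for both lines 55%), so no member had H3K4me3 at a gene end in 1 line alone. The other 6 were Hk1, Pfkfb2, Pfkfb4, Ldha, Pgam2 and Pklr. In the first 4 of these the RefSeq start with H3K4me3 lies more than 1 kb inside the gene model. When annotated starts were used in place of gene ends, 28 of 31 members had H3K4me3 in each line (backgrounds 57.6% and 58.2%). The 3 without it were Pgam2, Pklr and Aldoc. Pgam2 and Pklr are isozymes best known from muscle and from liver and red cells. Aldoc is the brain-type aldolase, and its gene-end peak lies at its upper end, away from its annotated starts. Pigs and Spag5 also have gene ends within 1 kb of an Aldoc end.

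**Figure D1:**
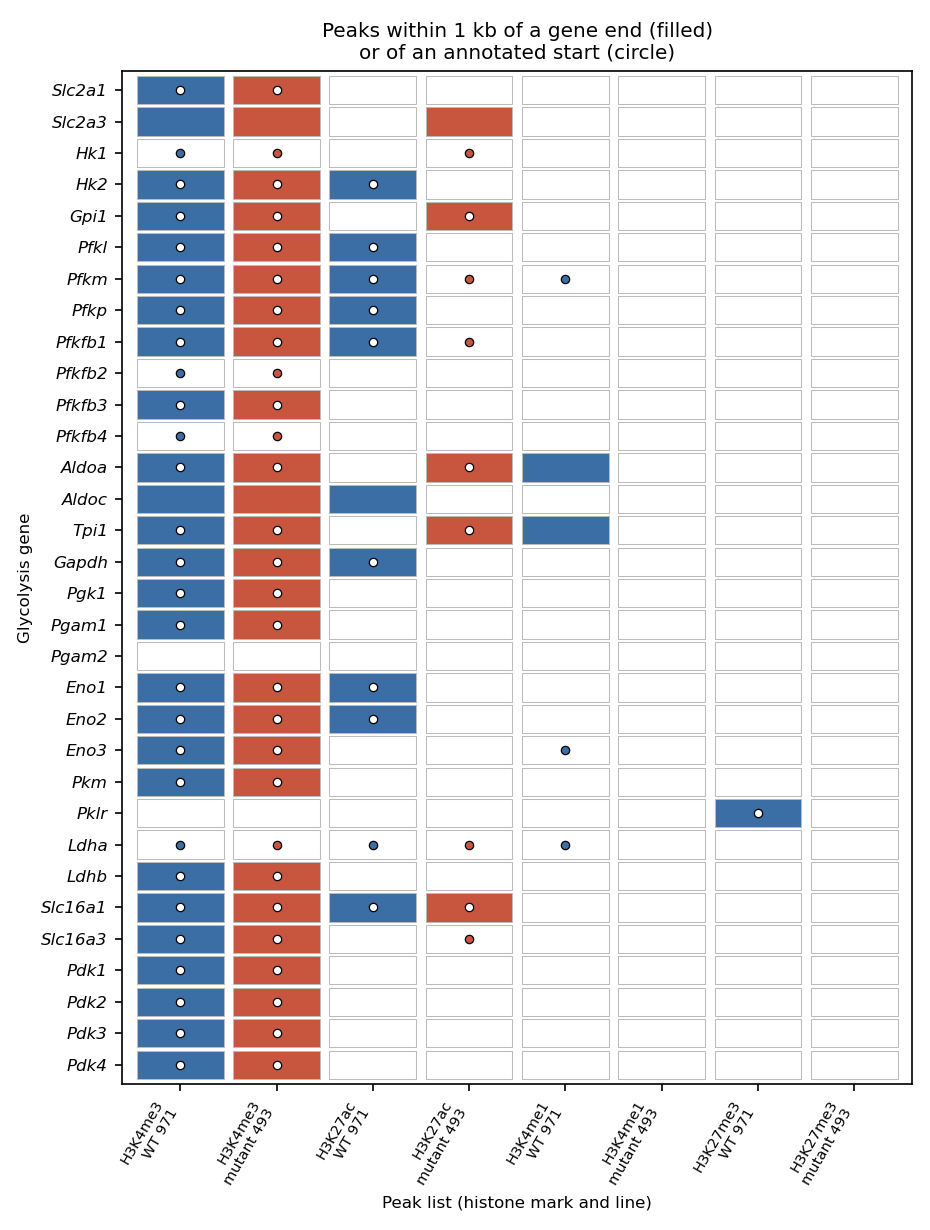
Presence of peaks at the 32 genes (rows) in the 8 peak lists (columns); a filled cell is a peak within 1 kb of a gene end, and a circle is a peak within 1 kb of an annotated start (Slc2a3 has no listed start). The 2 H3K4me3 columns are filled at the same 26 genes, while the H3K27ac columns share a filled cell only at Slc16a1.

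The width of the H3K4me3 stretch at the start was measured after joining peaks up to 1 kb apart, a choice made after the peaks were seen. The stretch was narrower in mutant cells at 20 of the 28 members with a start peak in both (background 62.2%) and wider at 8 (background 37.8%). The median width was 3.89 kb in WT cells and 3.62 kb in mutant cells, against 2.94 and 2.78 kb over 9883 genes measured the same way. Stretches of at least 4 kb were present at 13 of the 28 members in WT cells (background 24.8%) and at 12 in mutant cells (background 19.7%). With peaks joined, such wide stretches made up a larger share of the group than of all genes measured, in both lines. The 71.4% of members with a narrower stretch lay nearer to its background. The 4 kb counts rest in part on the joining. No single peak over a start reached 4 kb at Gpi1, Pfkfb2, Aldoa, Tpi1 and Slc16a1 in WT cells. In mutant cells this was so at Hk1, Aldoa and Tpi1. The share of wide peaks without joining was not compared with all genes. Of the 28 stretches, 6 also cover another protein-coding gene, taking both lines together. They are at Pfkm (Senp1), Pfkfb1 (Apex2), Pfkfb2 (Yod1), Tpi1 (Spsb2), Eno2 (Lrrc23) and Eno3 (Slc25a11, Rnf167 and Pfn1). With peaks not joined, 17 members had a narrower H3K4me3 peak in mutant cells and 11 a wider one, and no background was computed.

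**Figure D2:**
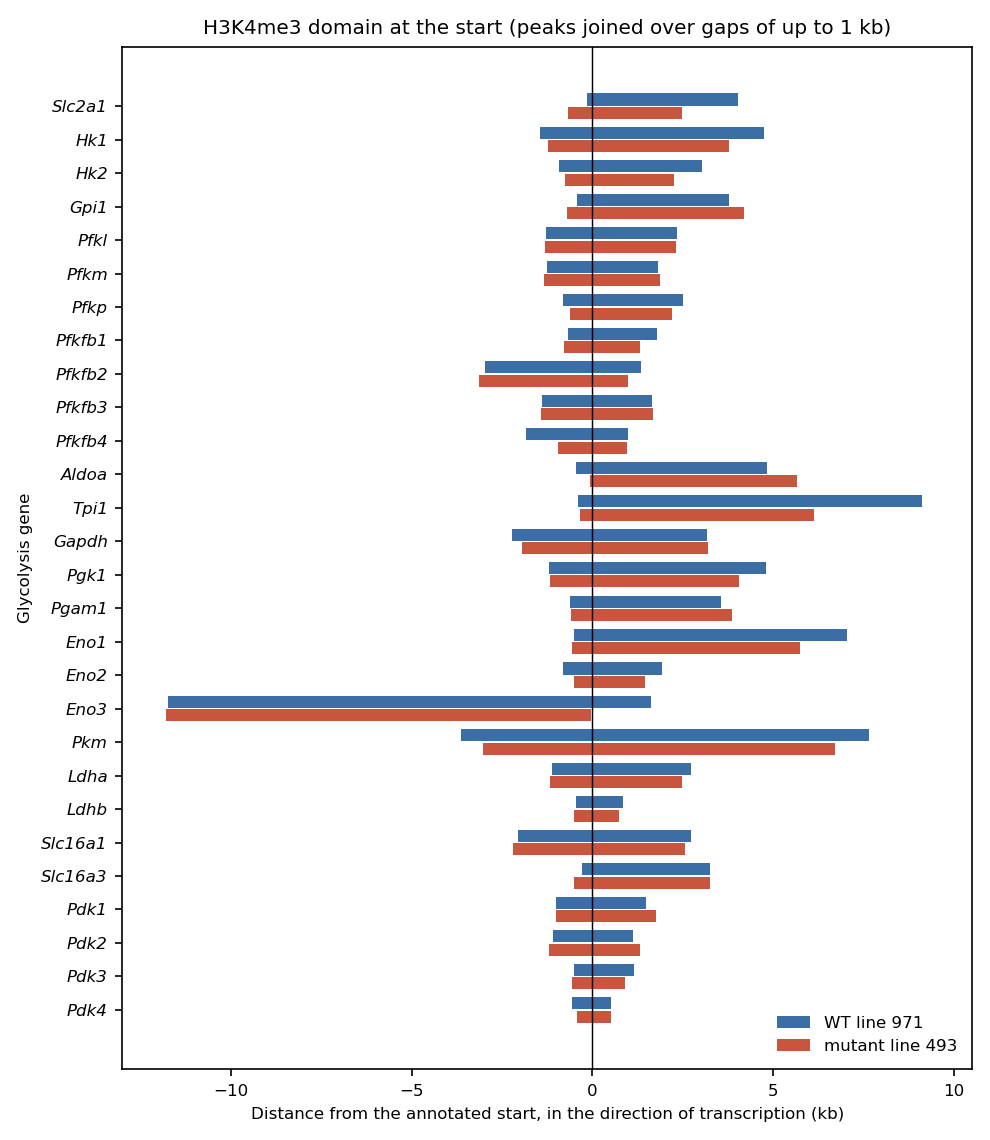
Extent of the H3K4me3 stretch (peaks joined over gaps of up to 1 kb) around the annotated start of 28 genes, in kb along the direction of transcription; each bar is 1 library, blue for WT line 971 and red for mutant line 493. Eno3, Pkm, Tpi1 and Eno1 carry the widest WT stretches, and 20 of the 28 red bars are shorter than the blue bar of the same gene.

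Glucose enters through Slc2a1 (GLUT1), the broadly expressed transporter, and Slc2a3 (GLUT3), a high-affinity one. At the Slc2a1 start the H3K4me3 stretch was 4.17 kb in WT cells and 3.17 kb in mutant cells. At the upper end of Slc2a3 the peaks were 1.25 kb (score 343.75) and 1.60 kb (score 700.05). The score is the authors' -10 times log10 of the p value. Its median was 639 over the whole WT list and 1217 over the whole mutant list. At these ends H3K4me3 was narrower at Slc2a1 and wider at Slc2a3 in mutant cells. Slc2a3 has no listed start, and the wider peak did not hold for the gene as a whole. Over Slc2a3 with 1 kb to each side, H3K4me3 covered 6.714 kb in WT cells and 6.435 kb in mutant cells. Inside or within 1 kb of the Slc2a1 gene, H3K4me1 covered 1.77 kb in WT cells, in 3 peaks between 119121737 and 119126417 on chromosome 4, and none in mutant cells. Slc2a3 had 0.731 kb of H3K4me1 in WT cells and none in mutant cells. The mutant list alone placed H3K27ac (1 peak, 89 bp) by the lower end of Slc2a3.

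The hexokinases trap glucose as glucose 6-phosphate. Hk1, the widely expressed form, had a start stretch of 6.2 kb in WT cells and 5.0 kb in mutant cells. Hk2, the form often raised in tumours, had 3.94 and 3.01 kb. Both forms were narrower in mutant cells. Over the gene body with 1 kb to each side, Hk1 held 11.1 kb of H3K4me3 in WT cells and 6.54 kb in mutant cells. Its H3K4me1 over the same span was 2.94 and 0.200 kb. At Hk2 the WT line had 1.10 kb of H3K4me1 and the mutant line none. H3K27ac at Hk2 was an 88 bp peak 985 bp from the start in WT cells and a 103 bp peak with its midpoint 1445 bp downstream in mutant cells, so the gene-end state of Hk2 turned on the 1 kb limit.

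Gpi1, which converts glucose 6-phosphate to fructose 6-phosphate, went the other way. Its start stretch was 4.21 kb in WT cells and 4.88 kb in mutant cells. An 89 bp H3K27ac peak lay 294 bp inside the start in the mutant list and none was called within 50 kb in the WT list. H3K4me1 within 50 kb was 0.963 and 1.14 kb, and Gpi1 was 1 of 3 members with more of it in mutant cells.

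The phosphofructokinase subunits Pfkl, Pfkm and Pfkp each had H3K4me3 at the start with the score 3100 in both lines. That value recurs at 18.6% of WT and 17.9% of mutant H3K4me3 peaks, so sharing it does not show equal signal. Widths were 3.61 and 3.60 kb at Pfkl, 3.08 and 3.21 kb at Pfkm, and 3.31 and 2.84 kb at Pfkp. The Pfkm stretch also covers Senp1. H3K27ac was at a gene end of all 3 in the WT list and of none in the mutant list. With lists of equal length, or with the more significant 50% of each, only Pfkp kept the WT call. In the mutant line Pfkl and Pfkm did have H3K27ac peaks further in, with midpoints 1121 bp and 1375 bp downstream of the start. Pfkm also had H3K27ac within 1 kb of its inner annotated starts in both lists. Over the gene with 1 kb to each side, H3K27ac covered 0.261 kb of Pfkm in each line. At Pfkl it covered 0.088 kb in WT cells and 0.117 kb in mutant cells. Pfkp, the platelet-type subunit, had the largest H3K27ac difference of the group: 1.15 kb within 50 kb in WT cells and 0.327 kb in mutant cells, of which 0.833 and 0.089 kb lay over the gene itself. Its 2 H3K4me1 peaks in WT cells, 2.10 kb at 6624450 to 6626552 and 0.598 kb at 6636496 to 6637093 on chromosome 13, had no mutant counterpart. Neither was among the WT peaks kept with lists of equal length or with the more significant 50% of each list.

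Of the 4 Pfkfb genes, Pfkfb4, a hypoxia-induced form, differed most in the width of the joined H3K4me3 stretch at the start. It was 2.83 kb, joined from 3 peaks, in WT cells and 1.93 kb, from 1 peak, in mutant cells. The direction turned on the joining, since the WT peak over the start itself was 1.045 kb wide and the mutant one 1.93 kb. H3K27ac within 50 kb of Pfkfb4 was 0.903 and 0.366 kb, and over the gene 0.207 kb against none. Pfkfb3, the strong kinase form of many tumours, had 3.03 and 3.11 kb of H3K4me3 at the start. Pfkfb2 had 4.31 and 4.12 kb, a stretch that also covers Yod1. H3K27ac over the gene was 0.350 and 0.0890 kb at Pfkfb2, a larger difference than at Pfkfb4. Pfkfb1, known from liver and muscle, had 2.46 and 2.13 kb, a stretch that also covers Apex2. H3K27ac at Pfkfb1 was an 88 bp peak in WT cells and an 89 bp peak in mutant cells at another annotated start.

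At the middle steps of the pathway, H3K27ac calls differed between the lines in both directions. Aldolase A splits fructose 1,6-bisphosphate, and triose phosphate isomerase (Tpi1) joins its products to 1 stream. In the mutant list Aldoa had peaks of 148 and 89 bp and Tpi1 had peaks of 89 and 146 bp within 1 kb of the start, and neither had any in the WT list. Gapdh, the dehydrogenase of the next step, had WT peaks of 183, 116 and 108 bp at its ends and none in the mutant list. Aldoc had an 88 bp WT peak at its upper end. In the WT list alone, H3K4me1 was within 1 kb of an end of Aldoa (0.603 kb) and Tpi1 (0.805 kb), the 2 members with it in the WT list (background 4.21%). None had it in the mutant list (background 2.27%).

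H3K4me3 at the same genes differed less, apart from Tpi1. The stretch was 5.28 kb in WT cells and 5.73 kb in mutant cells at Aldoa, and 5.41 and 5.14 kb at Gapdh. At Tpi1 it was 9.52 kb, joined from 6 peaks, in WT cells and 6.49 kb, joined from 2, in mutant cells, and it also covers Spsb2. Over the Tpi1 gene with 1 kb to each side the covered lengths were 4.47 and 4.17 kb, so most of that difference lay beyond the gene. Pgk1, which makes the first ATP of the pathway, had 6.0 and 5.22 kb. Pgam1, the general phosphoglycerate mutase, had 4.19 and 4.46 kb, while Pgam2 had no H3K4me3, H3K27ac or H3K4me1 over the gene in either line.

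Enolase makes phosphoenolpyruvate, and its 3 genes all had narrower H3K4me3 in mutant cells. Eno1, the general form (chromosome 4, 150236708 to 150248879), had 1 peak of 7.55 kb in WT cells, and in mutant cells peaks of 4.88 and 1.28 kb that joined to 6.32 kb. Eno2, the neuronal form, had a 2.74 kb peak with a score of 2339.88 in WT cells. In mutant cells the Eno2 peak was 1.94 kb with a score of 573.70. Taking both lines together, the Eno2 stretch also covers Lrrc23. Eno3, the muscle form, lies at the edge of a stretch of 13.4 and 11.8 kb shared with Slc25a11, Rnf167 and Pfn1. The WT stretch ran past the Eno3 start, while the mutant one ended 31 bp before it.

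H3K27ac was within 1 kb of a start of Eno1 (185 bp) and Eno2 (104 bp) in the WT list alone. In the mutant list the nearest Eno1 peak was 133 bp wide, with its midpoint 1831 bp downstream of the start, and no Eno2 peak was within 5 kb. H3K4me1 inside Eno1 covered more bases in mutant cells (1.21 kb) than in WT cells (0.778 kb). These peaks overlap between the lines, 332 and 446 bp wide in the WT list and 905 and 303 bp wide in the mutant list, and lie around the downstream edge of the H3K4me3 stretch.

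Pkm, the pyruvate kinase of most tissues and tumours, carried the widest stretch that covers no other protein-coding gene, 11.3 kb in WT cells and 9.74 kb in mutant cells. H3K27ac near the Pkm start was an 89 bp peak in the mutant list alone, with its midpoint 1666 bp downstream. Its isozyme Pklr (chromosome 3, 89136122 to 89146815) had the opposite state. It had no H3K4me3 and was the 1 member with H3K27me3 at a gene end in the WT list (background 9.94%). Within 50 kb, 12 of the 32 members had some WT H3K27me3 (background 42.4%). The mark covered 5.45 kb over Pklr with 1 kb to each side. This included 5 peaks within 1 kb of its ends, with fold enrichments of 3.68 to 4.72 as the authors' caller gave them. Hcn3 also has a gene end within 1 kb of a Pklr end. The mutant H3K27me3 list held no region at a gene end of any member (background 0.219%) and none within 50 kb. Because of that list's control, this does not read the level of the mark in mutant cells.

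**Figure D3:**
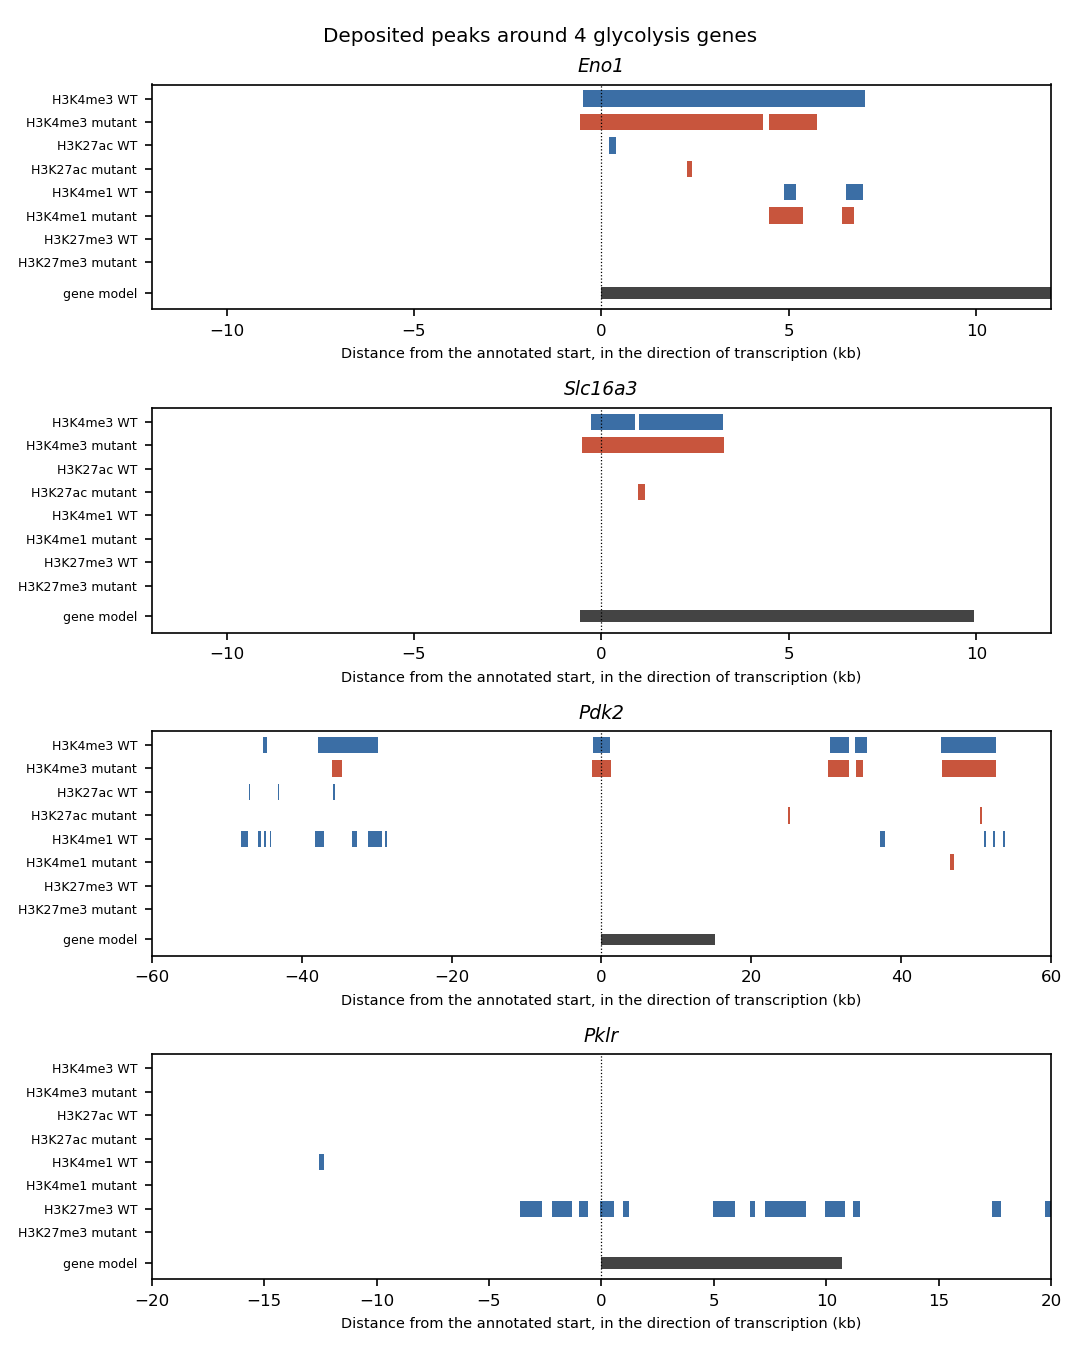
Deposited peaks (bars, blue for WT line 971 and red for mutant line 493) around Eno1, Slc16a3, Pdk2 and Pklr, in kb from the annotated start along the direction of transcription, with the gene model in grey. The H3K4me3 stretch at Eno1 is 1 peak in the WT list and 2 in the mutant list, the wide WT peak that sets the Pdk2 difference lies upstream of the gene, and Pklr has H3K27me3 peaks in the WT list.

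Lactate dehydrogenase A, the form that favours lactate, had an H3K4me3 stretch of 3.83 kb in WT cells and 3.63 kb in mutant cells. Ldhb, the form that favours pyruvate, had lower-scoring peaks of 1.30 kb (score 538.08) and 1.24 kb (score 258.76). H3K27ac at the Ldha starts was present in both lists, as peaks of 164 and 262 bp in WT cells and 1 peak of 89 bp in mutant cells. Within 50 kb, Ldha H3K27ac was 1.01 and 0.334 kb, the second largest difference of the group. H3K4me1 over Ldha was 0.636 kb in WT cells and absent from the mutant list. Ldhb had no H3K27ac or H3K4me1 within 50 kb in either line.

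The lactate transporters differed from each other. Slc16a1 (MCT1) had nearly the same stretch in both lines, 4.81 and 4.78 kb, and was the 1 member with H3K27ac at a gene end in both, as peaks of 88 and 89 bp that lie beside each other without overlap. Slc16a3 (MCT4), the hypoxia-induced exporter, had 2 WT peaks with a highest score of 598.27 and 1 mutant peak with a score of 2526.56. The joined widths were 3.53 and 3.79 kb. Its H3K27ac peak within 1 kb of the start, 190 bp wide, was in the mutant list alone. Slc16a3 was thus 1 of the members where the mutant line had the higher-scoring H3K4me3 calls. The mutant list as a whole also had the higher median score, 1217 against 639 in the WT list.

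The 4 Pdk genes had H3K4me3 at the start in both lines and no H3K27ac or H3K4me1 over the gene. Widths were 2.48 and 2.75 kb at Pdk1, 2.22 and 2.54 kb at Pdk2, 1.64 and 1.48 kb at Pdk3, and 1.07 and 0.940 kb at Pdk4. Pdk1, a hypoxia target, and Pdk2 were wider in mutant cells, and Pdk3 and Pdk4 were narrower. Taking the highest peak score within each joined stretch, Pdk4 had the lowest of the 28 members in both lines, 322.76 and 130.47.

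H3K27ac was at a gene end of 10 of the 32 members in WT cells (background 28.7%) and of 5 in mutant cells (background 19.5%). Only Slc16a1 had it in both (background 12.6%), and its WT peak was not among those kept in lists of equal length. The 9 genes with it in the WT list alone (background 16.1%) were Hk2, Pfkl, Pfkm, Pfkp, Pfkfb1, Aldoc, Gapdh, Eno1 and Eno2. The 4 with it in the mutant list alone (background 6.84%) were Slc2a3, Gpi1, Aldoa and Tpi1. Among the 26 members with H3K4me3 at a gene end in both lines, 38.5% had H3K27ac in WT cells and 19.2% in mutant cells. The shares over all 12040 genes with H3K4me3 at an end in both lines were 49.4% and 33.3%.

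These H3K27ac states changed with the distance, the start and the list length used. With lists of equal length, Hk2, Pfkp, Aldoc, Gapdh and Eno2 had it in the WT list alone (5 members, background 12.8%), Slc2a3, Gpi1, Aldoa, Tpi1 and Slc16a1 in the mutant list alone (5 members, background 8.69%), and none in both (background 10.8%). With the more significant 50% of each list, Hk2, Pfkp and Eno2 had it in the WT list alone (background 12.7%), Aldoa, Tpi1 and Slc16a1 in the mutant list alone (background 6.19%), and none in both (background 5.98%). The median H3K27ac peak was 116 bp wide in the WT list and 107 bp in the mutant list. At annotated starts the counts were 10 in WT cells (background 30.2%), 9 in mutant cells (background 20.5%) and 4 in both (background 13.5%). The 4 were Pfkm, Pfkfb1, Ldha and Slc16a1. Within 2.5 kb of a gene end the counts were 13 (background 35.1%), 15 (background 25.4%) and 8 in both (background 17.9%). At that distance Hk2, Pfkl, Pfkm, Pfkfb1, Eno1, Pgk1 and Slc2a3 joined Slc16a1 as genes with the mark in both lines. Aldoc, Eno2, Gapdh, Pfkfb4 and Pfkp then had it in the WT list alone (background 17.2%), and Aldoa, Gpi1, Hk1, Pgam1, Pkm, Slc16a3 and Tpi1 in the mutant list alone (background 7.47%). Of the 17 WT peaks with midpoints within 2 kb of a start, 9 lay downstream of it, and of the 17 mutant peaks 14 did. Over all genes with a listed start, 63.1% of WT and 61.6% of mutant peaks within 2 kb lay downstream, against 52.9% and 82.4% for the members, whose shares rest on 17 peaks each.

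Covered bases within 50 kb included the peaks of neighbouring genes, a median of 3 other genes for the members as for all genes. H3K4me3 covered fewer bases in mutant cells around 26 of the 32 members (background 54.5%) and more around 6 (background 23%). Among the 12040 genes with H3K4me3 at an end in both lines 72.1% had less, and among the 26 members 80.8%. The 6 were Gpi1, Pfkfb1, Pgam1, Pklr, Slc16a1 and Pdk1. The median difference, mutant minus WT, was -0.943 kb for the members, -0.125 kb for all genes and -0.517 kb for the 12040 genes with H3K4me3 at an end in both lines. Over the gene body with 1 kb to each side, 21 members had less (background 39.5%) and 9 more (background 23.7%). With lists of equal length the counts were 22 less (background 47.1%) and 10 more (background 29.6%). Eno2 and Tpi1 lie within 1 window and share peaks.

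The 4 largest H3K4me3 differences within 50 kb were at Pdk2, Hk1, Pkm and Eno1. Pdk2 had 23.1 kb in WT cells and 15.5 kb in mutant cells. That difference was not at Pdk2 itself: a WT peak of 7.98 kb at 95071224 to 95079207 on chromosome 11 overlaps Itga3 (95044475 to 95076844), which encodes an integrin subunit, where the mutant list had a peak of 1.44 kb. Over Pdk2 itself the lengths were 2.13 and 2.33 kb. Hk1 had 13.2 and 9.07 kb, Pkm 18.2 and 14.6 kb, and Eno1 13.9 and 10.4 kb, and at these 3 the mutant line also had less over the gene itself.

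**Figure D4:**
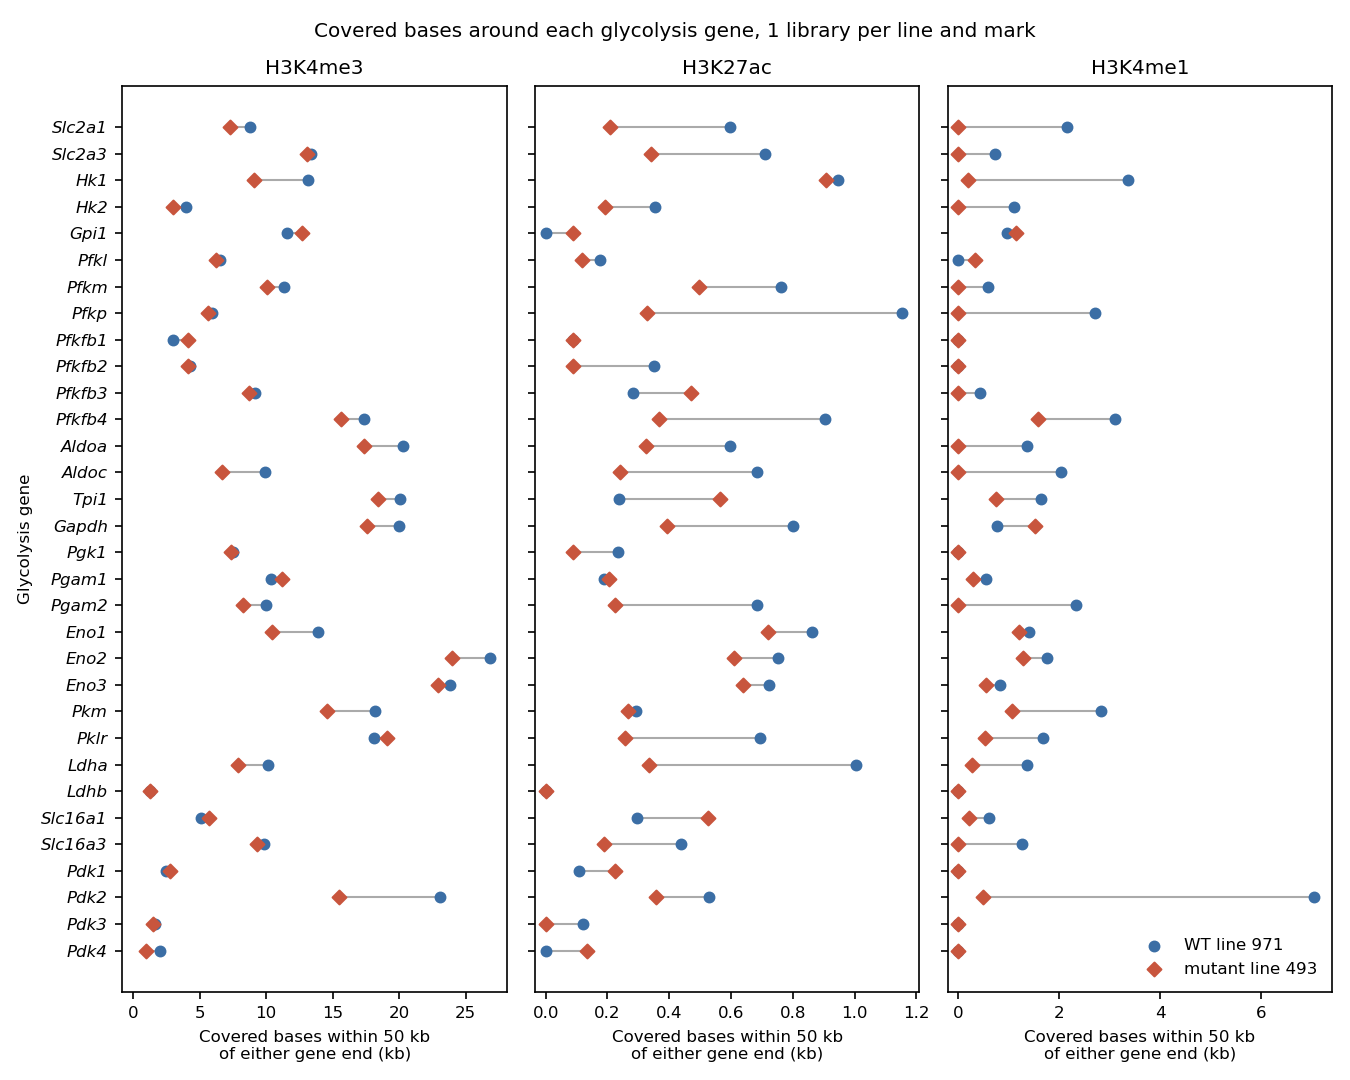
Bases covered by H3K4me3, H3K27ac and H3K4me1 peaks within 50 kb of either end of each of the 32 genes, in kb; circles are WT line 971, diamonds are mutant line 493, and a grey line joins the values of 1 gene. The diamond lies left of the circle at 26 genes for H3K4me3, 23 for H3K27ac and 22 for H3K4me1.

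H3K27ac covered fewer bases in mutant cells around 23 members (background 54.1%) and more around 8 (background 20.3%), with sums of 15.6 and 9.99 kb. Among the 12040 genes with H3K4me3 at an end in both lines, 70.1% had less H3K27ac, against 65.4% of the 26 members with that state, and the median difference was -0.160 kb. The 8 were Gpi1, Pfkfb1, Pfkfb3, Tpi1, Pgam1, Slc16a1, Pdk1 and Pdk4. The 4 largest differences were at Pfkp, Ldha, Pfkfb4 and Pgam2, the last with 0.685 kb in WT cells and 0.223 kb in mutant cells, all outside the gene. Bringing both lists to equal length by keeping their most significant peaks removes any list-wide difference in peak number. The direction towards fewer H3K27ac bases did not hold in that setting, which cannot show whether there was a list-wide difference. Then 14 members had less (background 43.2%) and 17 more (background 29.5%), and the median difference of -0.144 kb became 0.0225 kb. Over the gene body the members were also split evenly, with 11 less (background 33.3%) and 12 more (background 16.4%), 3 of the 12 by 1 bp.

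H3K4me1 covered fewer bases in mutant cells around 22 members (background 40.7%), more around Gpi1, Pfkl and Gapdh (3 members, background 9.85%) and equally around 7. Among genes with H3K4me3 at an end in both lines the shares with less were 53.7% of all and 65.4% of the members. The sums were 42.5 kb in WT cells and 11.4 kb in mutant cells, and 15.4 and 3.47 kb over the gene bodies, where 11 members had less (background 17.5%) and 5 more (background 5.66%). The largest differences were at Pdk2 (7.05 and 0.489 kb), Hk1 (3.36 and 0.200 kb), Pfkp (2.70 kb and none) and Pgam2 (2.33 kb and none). The Pdk2 and Pgam2 peaks lay outside those genes. In lists of equal length the difference, mutant minus WT, was 0 kb at Pfkp. It was -3.18 kb at Pdk2, -0.677 kb at Hk1 and -0.801 kb at Pgam2. With lists of equal length, 9 members had less H3K4me1 (background 15.1%) and 11 more (background 19.6%). The lower H3K4me1 coverage around most members was thus not seen with lists of equal length. That setting cuts the WT list from 17373 to 3649 peaks. It removes any list-wide difference in peak number by construction, so it cannot show whether there was one. At annotated starts H3K4me1 was present at Pfkm, Eno3 and Ldha in the WT list (3 members, background 2.58%) and at none in the mutant list (background 1.98%).

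Peaks were matched between the lines to see whether the same sites were marked. Of 150 WT H3K4me3 peaks around the members, 121 overlapped a mutant peak (80.7%, 95% Wilson interval 73.6 to 86.2%), against 72.2% of all WT peaks. For H3K27ac 9 of 115 did (7.83%, interval 4.17 to 14.2%), against 8.65% of all. For H3K4me1 10 of 85 did (11.8%, interval 6.52 to 20.3%), against 6.63% of all. These intervals cover counting error only. With a gap of up to 1 kb allowed, the H3K27ac share was 29.6% around the members and 30.1% for the whole list, and the H3K4me1 share was 11.8% and 11.6%. The sharing of these marks around glycolysis genes was then close to that of the whole lists. For H3K4me3 the shares with that gap were 86.0% around the members and 75.7% for the whole list.

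Other genes of the pathway differed at gene ends at 1 gene for H3K4me3 and at 6 for H3K27ac, over 3 lists. Over all protein-coding genes, H3K27ac was at a gene end in the WT list alone at 16.1% and in the mutant list alone at 6.84%. Among 17 further isozymes and transporters, H3K4me3 was at a gene end of 8 in WT cells (background 56.4%) and 9 in mutant cells (background 56.7%). The 1 in the mutant list alone (background 1.68%) was Eno4, an enolase-like gene. H3K4me1 was at Slc2a4 (GLUT4) in the WT list alone and at Gapdhs, the sperm form, in the mutant list alone. The H3K4me1 backgrounds were 4.21% in the WT list and 2.27% in the mutant list. WT H3K27me3 was at Slc2a2 and Slc2a4 (background 9.94%). None of the 17 had H3K27ac in 1 line alone. All 8 genes of pyruvate entry into mitochondria had H3K4me3 in both lines (background 55%). In that list H3K27ac was at Mpc2, a subunit of the pyruvate carrier, in the WT list alone (background 16.1%), and at Pdhb, a pyruvate dehydrogenase subunit, in the mutant list alone (background 6.84%). Of 14 transcriptional regulators of glycolysis, 12 had H3K4me3 at a gene end in both lines (background 55%). Hif1a and Mlxipl had it at a gene end in neither. Annotated starts were not examined for these lists, so this does not show that the starts of Hif1a and Mlxipl lack the mark. Within 50 kb, H3K4me3 covered 6.38 kb in WT cells and 6.34 kb in mutant cells at Hif1a, and 16.5 and 15.3 kb at Mlxipl. Arnt, the partner of the hypoxia factors, and Txnip, which restrains glucose uptake, had H3K27ac in the WT list alone, and Usf1, an E-box binding factor, and Egln2, an oxygen-sensing hydroxylase, had it in the mutant list alone. WT H3K27me3 was at Mlxipl, the glucose-responsive factor ChREBP (background 9.94%).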

How the data were processed

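ChIP-seq peak lists of 8 libraries (4 marks in 2 lines) were used, and the 4 input libraries were not analysed here. The authors used FastQC, MultiQC and MACS2 on mm10, per the submitters' processing notes, without versions. No source used here names the aligner, the read filters or the depth. The authors deposited a fold enrichment (a ratio over the control) and −log10 p and −log10 q values for each H3K27ac, H3K4me1 and H3K27me3 peak. For H3K4me3 they deposited a score, −10 times log10 of p, with a minimum of 50. The rescaled score column of the other lists was not used. These values served to rank peaks within a list and to describe single peaks, at some genes side by side for the 2 lines.

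From the lists, peaks within 1 kb of a gene end and bases under peaks within 50 kb were computed with Python 3.11.15, numpy 2.4.6 and pandas 2.3.3, and checked by brute force on simulated peaks. Figures were drawn with matplotlib 3.10.9. Gene ends, starts and sequences came from RefSeq tables of GRCm38.p6, the assembly of mm10. A peak matched a counterpart if they overlapped by 1 bp. With 1 library per line and mark no test was made, and background shares stand beside most counts. They are over all 21887 protein-coding genes for gene ends and covered bases, and over 17492 with a listed start for annotated starts. For H3K4me3 stretches they are over 9883 genes, and for sequence matches over 32851 windows. The counts under other settings at the end are given without a share. Named genes were those whose gene-end state differed, the 4 largest differences in covered bases per mark, those with H3K27me3 at a gene end, isozymes of 1 reaction, and from the 3 further lists those whose state differed; 1 gene of these lists is not reported here. The members and lists were chosen with earlier results of these data known.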

Additional observations from a re-analysis of the deposited data

How the results depend on the processing

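With 1 library per line and mark, no result could be recomputed without a replicate, and no paired analysis was possible because there was 1 library per group. The counts of members with H3K4me3 at a gene end stayed within 1.5 times under each of the 6 alternatives (distances of 0.5 and 2.5 kb, annotated starts, the more significant 50% of each list, lists of equal length, and without chromosomes 10 and 19). H3K27ac was at a gene end of 3 members in the WT line with the more significant 50% and of 5 with equal lengths. In the mutant line these counts were 15 at 2.5 kb, 3 at 0.5 kb, 9 at starts and 3 with the more significant 50%. In the WT list alone they were 5 at 2.5 kb, 3 with the more significant 50% and 5 with equal lengths, and in the mutant list alone 7 at 2.5 kb and 2 at 0.5 kb. H3K4me1 at a gene end was 4 in the WT line at 2.5 kb, 1 at 0.5 kb and 0 with either shorter list, and 2 in the mutant line at 2.5 kb.

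Members with more H3K4me3 in the mutant line numbered 10 with equal lengths. Members with less H3K27ac numbered 14 with equal lengths and 11 over gene bodies, and those with more numbered 17 with equal lengths. For H3K4me1, 9 had less and 11 more with equal lengths, and 11 and 5 over gene bodies. The median H3K4me3 difference was -0.324 kb within 20 kb, -1.45 kb within 100 kb, -0.940 kb with the more significant 50%, -0.476 kb with equal lengths, -0.954 kb without chromosomes 10 and 19 and -0.172 kb over gene bodies. In the same order, the H3K27ac median was -0.0345, -0.195, -0.0870, 0.0225 (opposite in sign), -0.162 and 0 kb. The H3K4me1 median was -0.227, -1.06, -0.0200, 0, -0.587 and 0 kb. The share of WT H3K27ac peaks with a counterpart was 29.6% within 1 kb. With the more significant 50% of each list, 12 members had a narrower H3K4me3 stretch in the mutant line and 9 a wider one. For Pdk2, the H3K4me3 difference of -7.60 kb was 0.446 kb within 20 kb and 0.200 kb over the gene body. Gene-body spans and H3K4me3 stretches were added after the data were seen. The cause of these changes was not tested. A peak that is missing from a list shows only that none passed the caller's threshold at a depth that is unknown.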
